A study of Mus musculus with 7 samples.

Results

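Ide, Btaf1, Xaf1, Sarm1, Iqgap2, Pop1, Mtcp1 and Gm1821 are 8 of the 54532 genes in the deposited table. They were chosen by their values, because in these genes WT replicates 1 and 3 stood apart from all the other libraries. They are grouped here to see whether they sit together on chromosomes, as genes of a shared haplotype would. RNA-seq had been made from 7 motor cortex libraries, 4 labelled conditional knockout (cKO) and 3 labelled wild type (WT). All the mice, WT included, had received a virus named GA100 in both lateral ventricles on postnatal day 0 and were sampled 3 months later, after behavioural testing. The series title names TIA1 and a C9orf72 poly-GA disease model, in which a glycine-alanine repeat protein is made. The labels give neither the Cre driver nor the deleted exons nor the mouse strain, and no uninjected animals were analysed here. They also do not say in so many words that each library is a separate mouse, and a p-value here therefore speaks only of variation among libraries.

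Inbred mouse lines that have been crossed keep stretches of chromosome from each parent line. Neighbouring genes within one stretch are inherited together, and a variant in it can set the RNA level of one gene or of several neighbours. Copy number variants do the same. A copy gain that includes Ide is known to occur among C57BL/6J mice, Xaf1 is known to differ in expression between laboratory strains, and strain tracts around an edited gene are a familiar feature of conditional lines. No genotype, copy number or strain was measured in these libraries.

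All 8 genes passed the filter on low counts that left 16308 genes, and 7 of them code for protein. Library totals lay between 15181390 and 16463721 counts, so depth was alike. The split does not follow sex: WT replicate 1 had 15217 Xist counts and 0 Ddx3y counts, while WT replicate 3 had 0 Xist counts and 1073 Ddx3y counts. Levels are counts scaled to library size (CPM). Markers of excitatory cortical neurons summed to 6125.3 and 5538.0 CPM in WT replicates 1 and 3, against 4302.4 to 5564.5 CPM in cKO and 5761.2 CPM in WT replicate 2, so the tissue label was borne out and the sums overlapped. Of these 6 markers 3 lay above the other libraries in both, beside 7.78% of all genes tested. Among these 3 was Slc17a7, the vesicular glutamate transporter, at 1472.7 and 1332.5 CPM against 987.0 to 1111.4 CPM in the other 5 libraries. Sums for astrocyte markers were 5170.3 and 4975.1 CPM in those WT libraries, against 5033.4 to 5659.2 CPM in the other 5, and for microglia 399.0 and 326.0 CPM against 307.0 to 345.0 CPM. Myelin markers summed to 3743.5 and 5235.8 CPM against 4081.4 to 8124.6 CPM, and the 4 T cell markers stayed at or below 0.676 CPM in every library. The part of these markers in the results below was not tested, and in bulk tissue fewer cells of a type and less RNA per cell cannot be told apart.

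Ide and Btaf1 are neighbours on chromosome 19 (mm10), with Ide at 37268743 to 37337852 on the minus strand and Btaf1 at 36926079 to 37012752 on the plus strand. Their identifiers are ENSMUSG00000056999 for Ide and ENSMUSG00000040565 for Btaf1. Ide encodes the insulin-degrading enzyme, a metalloprotease that cleaves insulin and amyloid beta. Its level was 59.2 and 61.6 CPM in WT replicates 1 and 3, against 102.0, 101.0, 109.0 and 99.2 CPM in cKO replicates 1 to 4 and 91.3 CPM in WT replicate 2. The pair differed from each other by a factor of 1.04, and the lowest of the other libraries was 1.48 times the higher of the pair. Btaf1 encodes an ATPase that removes the TATA-binding protein from DNA. It stood at 48.8 and 59.0 CPM in the same pair, against 78.3, 91.1, 91.7 and 89.2 CPM in cKO and 80.3 CPM in WT replicate 2, and its nearest ratio of 1.33 was the narrowest of the 8. The order of WT replicate 3 above WT replicate 1 was shared by both genes, but for Ide that step is within the counting intervals of 57.7 to 65.7 and 55.5 to 63.0 CPM.

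Between Ide and Btaf1, whose starts lie 0.34 Mb apart, 2 genes were tested and neither separated the pair. Cpeb3, an RNA-binding regulator of translation, was at 132.0 and 131.0 CPM in WT replicates 1 and 3, inside the range of 113.0 to 143.0 CPM of the others. March5, a mitochondrial ubiquitin ligase, was at 69.6 and 73.6 CPM, also overlapping. Fgfbp3, which starts 0.009 Mb before Btaf1, was at 4.90 and 2.77 CPM, against 5.61, 3.92, 5.01 and 5.14 CPM in cKO and 6.30 CPM in WT replicate 2, so its libraries overlapped. Farther out, Ppp1r3c, a glycogen-targeting phosphatase subunit 0.194 Mb before Btaf1, was at 34.6 and 40.3 CPM against 45.8 to 63.7 CPM in cKO and 51.1 CPM in WT replicate 2. Kif11, a mitotic kinesin 0.108 Mb beyond Ide, was at 2.20 and 2.44 CPM against 2.64 to 3.52 CPM, a gap of -0.09. It rests on 36 and 37 reads in the pair against 39 to 57 in the others. Along chromosome 19 Ppp1r3c and Btaf1 were thus lower in the pair, while Fgfbp3 between them and then Cpeb3 and March5 overlapped. Ide was lower again, and Kif11 was lower only by that narrow gap. A separation of any size occurred in 15.7% of all genes tested.

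Xaf1 and Sarm1 share chromosome 11, with Xaf1 at 72301629 to 72313733 on the plus strand and Sarm1 at 78472330 to 78497754 on the minus strand. The identifier of Xaf1 is ENSMUSG00000040483 and that of Sarm1 is ENSMUSG00000050132. Xaf1 is an interferon-inducible antagonist of the caspase inhibitor XIAP. It had 3.30 and 3.90 CPM in WT replicates 1 and 3, from 54 and 59 reads, against 17.6, 19.2, 11.3 and 21.8 CPM in cKO and 16.3 CPM in WT replicate 2, from 264 reads. The lowest of the other libraries, cKO replicate 3, was still 2.9 times the higher of the pair, although the other 5 spread over a factor of 1.93 among themselves. Sarm1, the NAD-cleaving enzyme that carries out programmed axon degeneration, went the other way, with 39.0 and 35.6 CPM in the pair, against 21.6, 20.5, 21.8 and 24.1 CPM in cKO and 20.9 CPM in WT replicate 2. Here the other 5 libraries differed by a factor of only 1.17, and the lower of the pair was 1.48 times the highest of them.

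Next to Xaf1, 0.043 Mb on, Tekt1, a tektin of ciliary microtubules, had 0.734 and 1.06 CPM in the pair, against 3.07, 2.06, 2.03 and 3.38 CPM in cKO and 4.76 CPM in WT replicate 2. Its direction was that of Xaf1, on few reads (12 and 16 in the pair). Slc13a5, the citrate transporter 0.06 Mb on the other side, had 12.2 and 8.52 CPM against 8.58 to 11.5 CPM and overlapped. Around Sarm1 the nearest genes tested on each side, Slc46a1 and Vtn, overlapped, while Sebox, 0.031 Mb away, was at 3.37 and 3.96 CPM against 2.1 to 2.82 CPM. Flot2, Phf12 and Tmem199 within 0.5 Mb also lay higher in the pair, by log2 gaps of 0.08, 0.15 and 0.02. The 6.17 Mb between Xaf1 and Sarm1 held 106 genes tested, of which 8 lay above and 8 below, or 15.1%.

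Iqgap2 (ENSMUSG00000021676) lies on chromosome 13 at 95627177 to 95891922, minus strand, and encodes a scaffold that binds the small GTPases Rac and Cdc42 and actin. It had 45.4 and 57.2 CPM in WT replicates 1 and 3, against 22.1, 26.7, 15.8 and 24.6 CPM in cKO and 21.3 CPM in WT replicate 2. The lower of the pair was 1.70 times the highest other library, the widest upward gap of all genes tested on the log2(CPM + 0.5) scale. F2rl2, a thrombin-family receptor gene on the opposite strand inside the Iqgap2 span, had 1.90 and 2.31 CPM, against 0.904, 1.13, 0.271 and 1.19 CPM in cKO and 1.11 CPM in WT replicate 2. These genes share 0 exon bases in GENCODE release M21, but the strand setting of the counting is not given in the sources used here. On the other side F2r, 0.025 Mb away, had 5.81 and 5.88 CPM against 5.59 to 8.39 CPM and overlapped.

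Pop1, Mtcp1 and Gm1821 each lie alone on their chromosomes. Pop1 (ENSMUSG00000022325), a protein subunit of RNase P and RNase MRP on chromosome 15 at 34495304 to 34530648, plus strand, had 5.81 and 6.27 CPM in the pair, against 9.40, 12.7, 9.33 and 10.5 CPM in cKO and 10 CPM in WT replicate 2. Its neighbour Rida, 0.011 Mb away, was at 21.1 and 21.5 CPM against 24.2 to 29.6 CPM, whereas Stk3, a Hippo pathway kinase 0.38 Mb away, lay the other way at 18.2 and 16.7 CPM against 10.8 to 13.8 CPM. Mtcp1 (ENSMUSG00000031200), a TCL1-family AKT-binding protein on chromosome X at 75410444 to 75416588, minus strand, had 3.79 and 3.70 CPM, against 7.42, 6.32, 5.82 and 5.76 CPM in cKO and 7.47 CPM in WT replicate 2. It is the one member whose 95% counting intervals touch, with up to 4.86 CPM in WT replicate 1 and down to 4.65 CPM in cKO replicates 3 and 4; intervals cover counting error only. Cmc4, which shares 570 of the 4478 exon bases of Mtcp1, had 2.20 and 2.25 CPM against 2.77 to 3.95 CPM, so reads of the 2 genes cannot be fully told apart, while Brcc3 on the other side overlapped.

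Gm1821 (ENSMUSG00000044285), a transcribed processed pseudogene on chromosome 14 at 46084028 to 46085000, plus strand, had 11.7 and 13.5 CPM in the pair, against 26.2, 29.1, 28.5 and 28.6 CPM in cKO and 25.1 CPM in WT replicate 2. The other 5 libraries differed by a factor of 1.16, and their lowest was 1.87 times the higher of the pair. Its transcript matches that of Ubb, a polyubiquitin gene, at 98.5% over 685 bases, so how reads were assigned between them is uncertain. Ubb was at 546.0 and 553.0 CPM in WT replicates 1 and 3, against 497.0 to 519.0 CPM in cKO and 505.0 CPM in WT replicate 2, the opposite direction. The sum of both was 557.0 and 566.0 CPM in the pair, against 526.0 to 547.0 CPM in cKO and 530.0 CPM in WT replicate 2, and Gm1821 took 2.1% and 2.38% of it against 4.74% to 5.48%. Per length, in the authors' FPKM, Gm1821 was the most abundant member in the other 5 libraries at 25.7 to 29.7, followed by Ide at 15.6 to 18.8 and Btaf1 at 10.7 to 12.8, with Mtcp1 the lowest at 1.28 to 1.66.

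**Figure D1:**
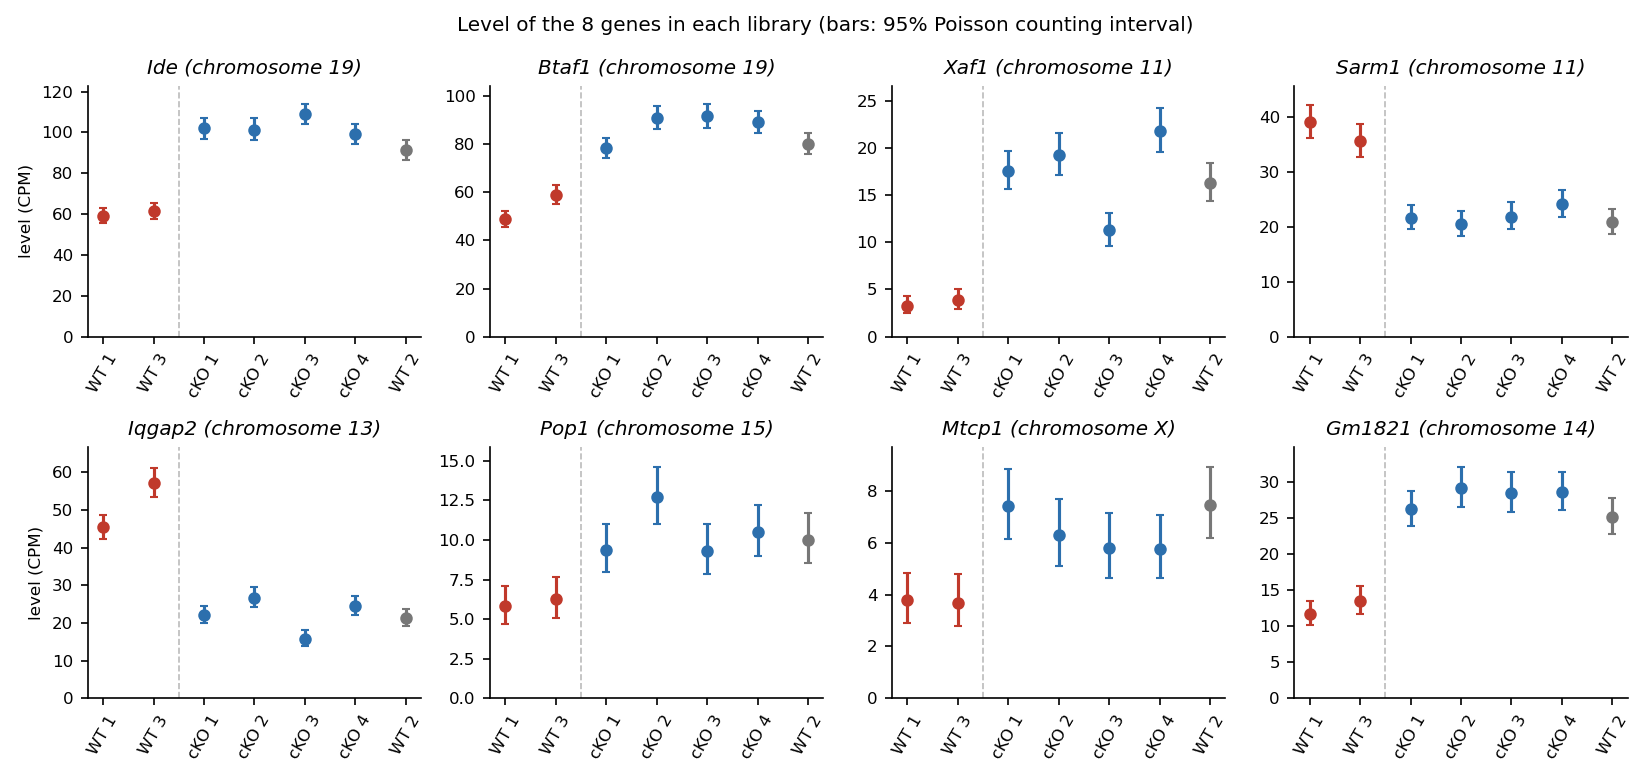
Level of each of the 8 genes in CPM (vertical axis) in each library (horizontal axis), WT replicates 1 and 3 left of the dashed line in red, cKO replicates 1 to 4 in blue and WT replicate 2 in grey, with bars for 95% Poisson counting intervals. Sarm1 and Iqgap2 are higher in the red libraries and the other 6 genes are lower, with no overlap of the points.

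Promoters are shown for Xaf1 and Iqgap2, the genes with the widest gap in each direction, and for Sarm1 and Btaf1, but not for Ide. Each runs 5′ to 3′ on the strand of its gene, from 250 bases before to 50 after the start used by the RefSeq promoter table (GRCm38.p6), and capitals mark matches on either strand to AANNGAAA, the core that interferon regulatory factors bind. Xaf1 is chr11:72301379-72301678 on the plus strand, Sarm1 is chr11:78497705-78498004 on the minus strand, Iqgap2 is chr13:95891873-95892172 on the minus strand and Btaf1 is chr19:36925829-36926128 on the plus strand.
Xaf1: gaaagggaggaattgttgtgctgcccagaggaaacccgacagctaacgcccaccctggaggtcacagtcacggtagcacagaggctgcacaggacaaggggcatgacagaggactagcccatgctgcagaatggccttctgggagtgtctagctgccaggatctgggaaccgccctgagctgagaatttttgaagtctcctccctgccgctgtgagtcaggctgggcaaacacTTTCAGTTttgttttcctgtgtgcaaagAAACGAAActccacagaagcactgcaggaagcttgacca
Sarm1: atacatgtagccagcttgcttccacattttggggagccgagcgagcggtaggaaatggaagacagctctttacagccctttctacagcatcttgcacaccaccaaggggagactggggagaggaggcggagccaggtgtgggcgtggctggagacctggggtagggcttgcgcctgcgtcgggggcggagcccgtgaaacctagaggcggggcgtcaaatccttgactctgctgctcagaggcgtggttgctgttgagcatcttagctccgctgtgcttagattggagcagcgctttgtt
Iqgap2: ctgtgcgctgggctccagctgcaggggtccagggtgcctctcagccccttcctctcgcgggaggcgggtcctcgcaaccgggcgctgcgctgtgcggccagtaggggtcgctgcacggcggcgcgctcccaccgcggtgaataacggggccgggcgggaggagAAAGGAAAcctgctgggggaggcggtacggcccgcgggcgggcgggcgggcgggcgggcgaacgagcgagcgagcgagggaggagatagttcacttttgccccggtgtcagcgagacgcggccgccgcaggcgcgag
Btaf1: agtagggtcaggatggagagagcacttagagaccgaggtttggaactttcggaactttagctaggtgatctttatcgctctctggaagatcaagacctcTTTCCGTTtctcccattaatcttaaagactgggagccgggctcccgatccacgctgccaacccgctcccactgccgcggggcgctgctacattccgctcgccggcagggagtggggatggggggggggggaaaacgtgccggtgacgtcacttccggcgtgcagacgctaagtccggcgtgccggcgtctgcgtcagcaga

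RefSeq promoters were matched for 6 of the 8 genes. The Xaf1 window held 2 matches, at positions 234 and 262 counted from 1 at its 5′ end, Iqgap2 and Btaf1 held 1 each, and Sarm1, Ide and Mtcp1 held 0. These starts are not always the outermost ones. The RefSeq gene span of Xaf1 begins at 72301461, before both matches, that of Iqgap2 reaches 95892280, beyond its window, and the Ide window lies inside the Ide span given above. Among all 27025 promoters of that length 24.2% held at least 1 match and 5.50% at least 2. GGGCGG, the GC box, occurred 6 times in Iqgap2, with matches overlapping in its GC-rich repeat. Mtcp1 held 2 matches to it, Xaf1 and Sarm1 held 1 each, and Ide and Btaf1 held 0. Of all promoters 35.9% held at least 1. TATAAA and CACGTG were in none of the 6 windows and in 14.2% and 7.24% of all promoters, and CCAAT was in those of Ide and Sarm1 and in 37.9%. These are letter matches and not measured sites.

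Over all 16308 genes tested, both WT replicate 1 and WT replicate 3 lay outside the range of the other 5 libraries in 2566, or 15.7%, with 1268 above (7.78%) and 1298 below (7.96%). The split chose the 8 members, so their presence among these genes is no finding. Size sets them apart by construction: a gap of at least 0.5 on the log2(CPM + 0.5) scale, measured from the nearer of the pair to the nearest other library, occurred in 22 genes, or 0.135%, 6 upward (0.0368%) and 16 downward (0.0981%). Of these 22, 7 are members, and Btaf1 falls short at -0.41. The widest downward gaps were -1.42 for Xaf1 and -0.88 for Gm1821, and the widest upward gap was 0.75 for Iqgap2, with Sarm1 the fourth upward at 0.56. Ide, Mtcp1 and Pop1 lay just past the bound at -0.56, -0.55 and -0.54.

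The 15 other genes with such a gap all had a mean level under 6 CPM, the highest being 3.45 CPM. Those higher in the pair were Tnnc1, 2610507I01Rik, 4930519K11Rik and F2rl2. The 11 that were lower were Gm7173, Dynlt1b, Tekt1, Ccl27a, Gm29609, Gm48804, AC087559.2, Gm5436, Nat1, Gm49519 and Doc2g. Dynlt1b, a dynein light chain, had 1.16 and 1.39 CPM in the pair against 2.79 to 3.74 CPM in cKO and 4.69 CPM in WT replicate 2, and the chemokine gene Ccl27a on an unplaced scaffold had 1.1 and 0.264 CPM against 2.33 to 3.32 CPM and 2.1 CPM.

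**Figure D2:**
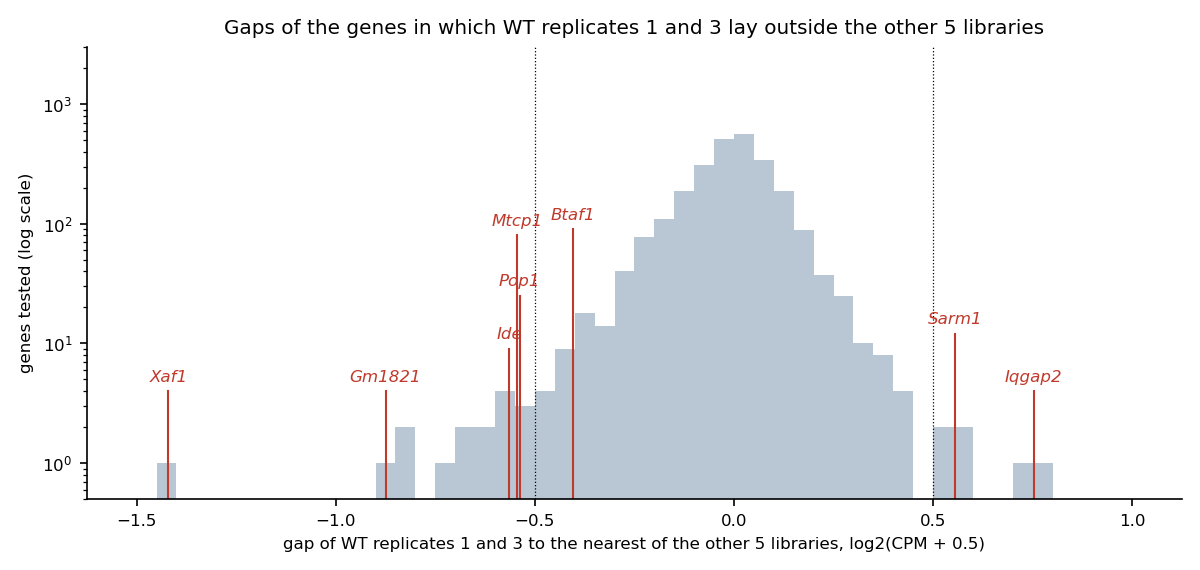
Number of genes (vertical axis, log scale) by the log2(CPM + 0.5) gap between WT replicates 1 and 3 and the nearest of the other 5 libraries (horizontal axis, positive when the pair is higher), for the 2566 genes with no overlap, with red lines at the 8 members and dotted lines at 0.5 either way. Xaf1 at -1.42 and Iqgap2 at 0.75 sit at the ends of the distribution.

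The 8 genes lie on 6 chromosomes, and 4 of them share a chromosome with another. Ide and Btaf1 are close and alike in direction, whereas Xaf1 and Sarm1 are far apart and opposite. Widening the view to all 22 genes with a wide gap gave 13 chromosomes and scaffolds, and 4 of the 22 lay within 1 Mb of another, as the pairs Xaf1 with Tekt1 and Iqgap2 with F2rl2. Gm7173 was 3.86 Mb from Mtcp1 and Gm49519 was 2.43 Mb from Gm1821. Per chromosome the share of genes tested that separated the pair in either direction ran from 13.3% on chromosome 15 to 17.8% on chromosome 16 over the autosomes and X, with 15.5% on chromosome 11 and 17.4% on chromosome 19.

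Around the members, 273 other genes tested started within 2 Mb, and 41 of them separated the pair, 20 above and 21 below, which is 15% beside the 15.7% of all genes. Within 0.5 Mb it was 15 of 90, or 16.7%, and within 5 Mb it was 102 of 590, or 17.3%. These shares are near the background, so counted over gaps of any size the split was not denser near the members. Gaps of at least 0.5 are given apart at the end of this paragraph. By locus the 0.5 Mb window held 2 separating genes of 8 around Ide, 3 of 9 around Btaf1, both counts including the other member, 2 of 15 around Xaf1, 4 of 31 around Sarm1, 1 of 7 around Iqgap2, 2 of 11 around Pop1, 3 of 13 around Mtcp1 and 1 of 3 around Gm1821. They went the way of the member around Ide, Btaf1, Sarm1, Iqgap2 and Gm1821. Around Xaf1 1 did (Tekt1) and 1 did not (Txndc17, at 13.6 and 13.7 CPM against 11.2 to 13.5 CPM), around Pop1 1 did (Rida) and 1 did not (Stk3), and around Mtcp1 1 did (Cmc4) and 2 did not (Gab3 and Gm7153). Among the 90 genes within 0.5 Mb that are not members, 2 had a gap of at least 0.5, Tekt1 and F2rl2. Of all genes tested 0.135% had such a gap, 7 members among them. Within 2 Mb it was 2 of 273 and within 5 Mb it was 4 of 590. Tekt1 and F2rl2 went the way of their member, on few reads. Whether wide gaps gather near the members was not tested.

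**Figure D3:**
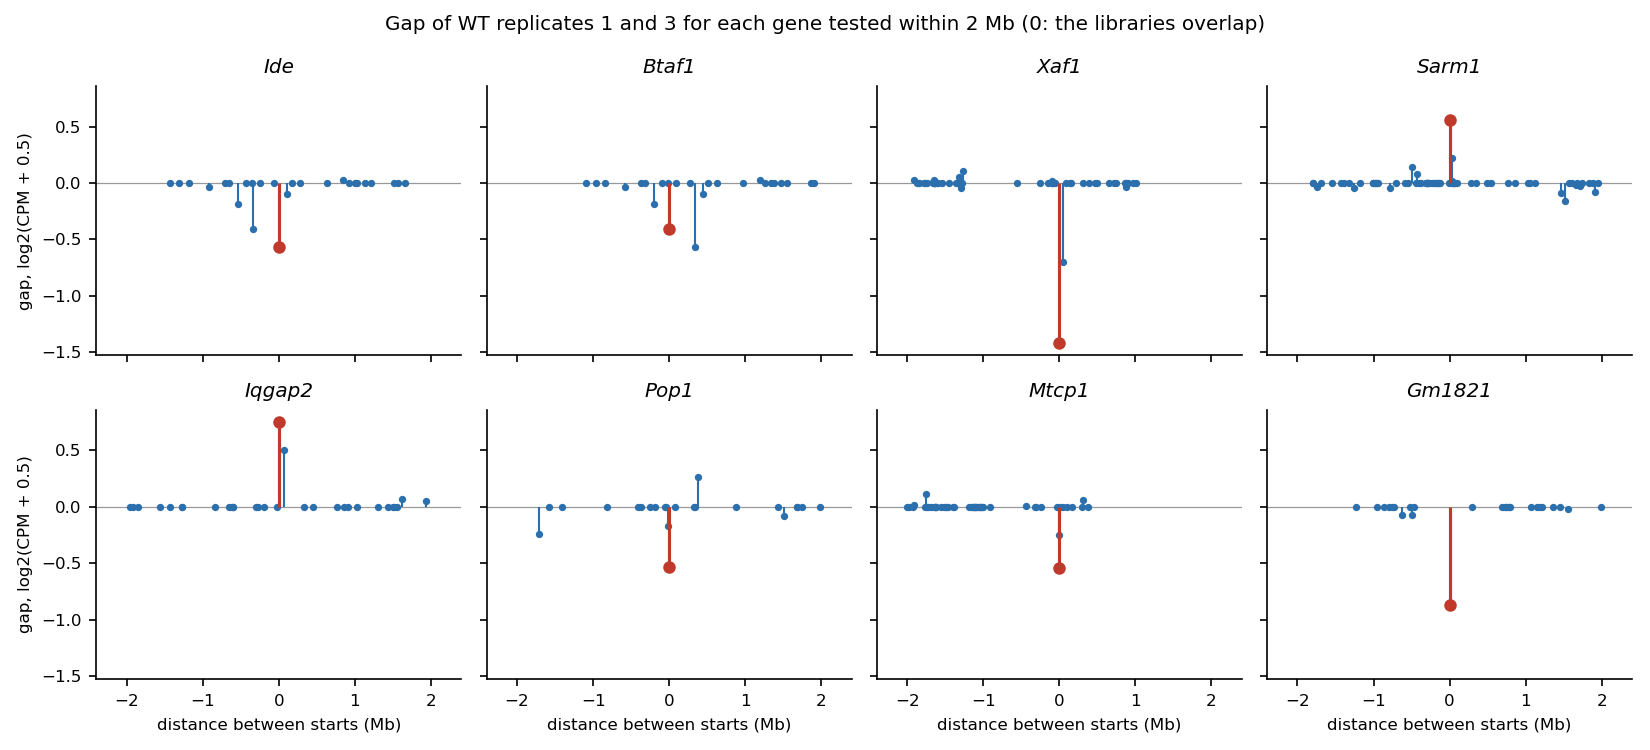
Gap of WT replicates 1 and 3 from the other 5 libraries on the log2(CPM + 0.5) scale (vertical axis, 0 where libraries overlap) for each gene tested, by the distance of its start from that of the member (horizontal axis, Mb), with the member in red. Most neighbours are at 0, and Tekt1 beside Xaf1 and F2rl2 beside Iqgap2 are the non-member neighbours with gaps of at least 0.5 within 0.5 Mb.

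Genes used as strain indicators did not all follow the same split. Of the 6 tested, 2 lay below the other 5 libraries in both, beside 7.96% of all genes. These were Gabra2 and Ide, and Ide was chosen by this split. Alad, whose copy number differs between strains, was at 16.6 and 15.8 CPM in WT replicates 1 and 3, against 23.6, 28.1, 28.1 and 14.6 CPM in cKO and 23.3 CPM in WT replicate 2. Here cKO replicate 4 was as low as the pair. Wdfy1, an endosomal adaptor, was at 60.7 and 36.9 CPM in the pair, against 60.5, 39.8, 60.9 and 62.5 CPM in cKO and 39.4 CPM in WT replicate 2, so WT replicate 3, WT replicate 2 and cKO replicate 2 were low. Gabra2, a GABA-A receptor subunit with a known strain variant, was at 101.0 and 97.0 CPM in the pair. It was at 106.0, 155.0, 160.0 and 148.0 CPM in cKO and 134.0 CPM in WT replicate 2, a narrow separation with a gap of -0.08. Here cKO replicate 1 lay closer to the pair than to the other cKO libraries. Glo1 ranged from 65.5 to 70.1 CPM over all 7 libraries. Nnt, which is deleted in part in C57BL/6J mice, reached at most 0.603 CPM in any library and was not tested. It had 1 and 3 reads in the pair, against 4 to 10 in the other 5 libraries. Of the same list, Fgfbp3 beside Btaf1 overlapped, as given above, and Entpd4 had 0 counts in all 7 libraries. Entpd4b, which belongs to a family of near-identical copies, had 14 to 235 reads per library. How reads were assigned between such copies is not stated, so the 0 of Entpd4 is uncertain.

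**Figure D4:**
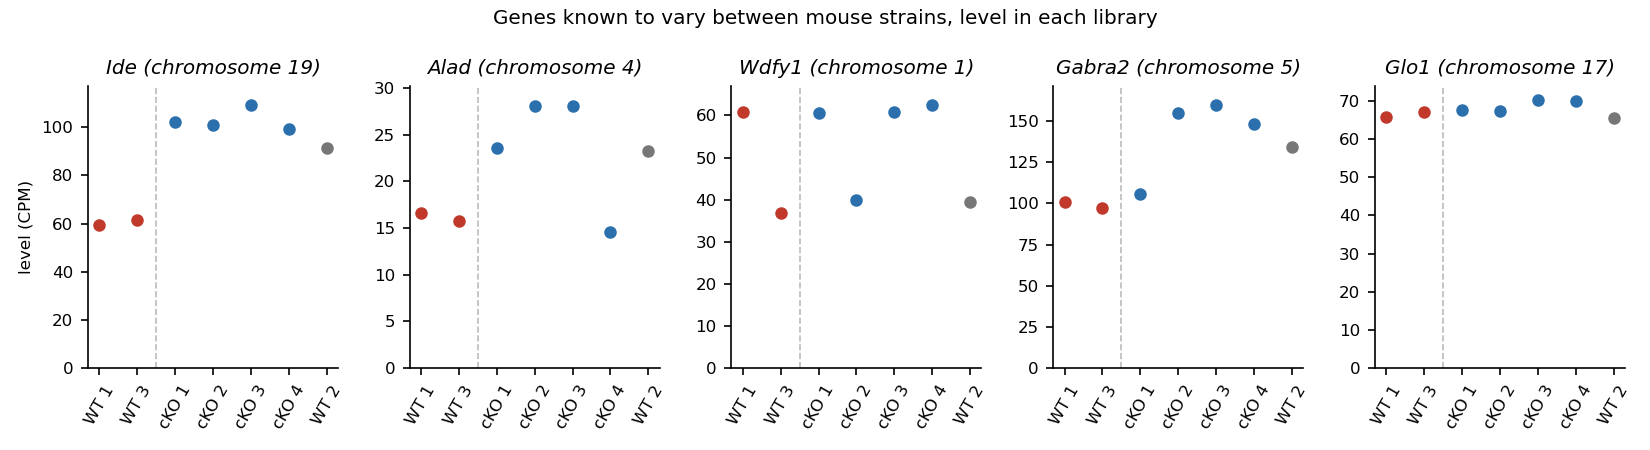
Level in CPM (vertical axis) of Ide and of 4 other genes known to vary between mouse strains, in each library (horizontal axis), WT replicates 1 and 3 in red, cKO in blue and WT replicate 2 in grey. Ide is low in the red libraries alone, Alad is low also in cKO replicate 4 at 14.6 CPM, and Wdfy1 is low in WT replicate 3, WT replicate 2 and cKO replicate 2.

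The comparison the series states is cKO against WT, and 2 of its 3 WT libraries are those that chose the members, so its values for them are a description. edgeR's quasi-likelihood test with Benjamini-Hochberg adjustment gave 0 calls after adjustment at 0.05 among 16308 genes, or 0.0%, with 1164 (7.14%) at an unadjusted p under 0.05, while DESeq2 called 3 (Hspa1b, Qk and Slc5a3). Of the 8 members 0 passed the adjusted threshold and 7 the unadjusted one, 5 of these 7 higher in cKO beside 4.22% of all genes and 2 lower beside 2.91%, from which nothing is read since the same libraries chose them. The cKO and WT libraries did not overlap for 2 of the 8, Ide and Gm1821, beside 7.38% of all genes. Ide averaged 103.0 ± 4.24 CPM in cKO and 70.7 ± 17.9 CPM in WT (SD, n = 4 and 3), a log2 fold change of 0.54 ± 0.13 (SE, 95% interval 0.25 to 0.83). For Xaf1 the means were 17.5 ± 4.47 and 7.83 ± 7.34 CPM and the log2 fold change was 1.15 ± 0.44, and for Gm1821 it was 0.74 ± 0.21. Iqgap2 averaged 22.3 ± 4.73 CPM in cKO and 41.3 ± 18.3 CPM in WT, at -0.89 ± 0.26, and Sarm1 22.0 ± 1.49 and 31.8 ± 9.65 CPM, at -0.53 ± 0.17. Btaf1, Pop1 and Mtcp1 stood at 0.48 ± 0.14, 0.51 ± 0.20 and 0.34 ± 0.24.

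WT replicate 2 by itself was then set against the 4 cKO libraries, with the lone WT library assumed to vary like cKO. The members were chosen with this library on the side of cKO, so its closeness to cKO in them was fixed by the choice and the values are a description. None of the 8 genes passed an unadjusted p under 0.05 (0 of 8) beside 2.2% of the 17466 genes tested, from which nothing is read, and edgeR called 0 genes in all, or 0.0%, after adjustment, where DESeq2 called 3 (Entpd4b, Gapdh and Gm9824). The log2 fold changes, cKO minus WT replicate 2, were 0.17 for Ide (95% interval -0.08 to 0.43), 0.13 for Btaf1 (-0.16 to 0.41) and 0.16 for Gm1821 (-0.17 to 0.49). For Xaf1 it was 0.10, with an interval of -0.58 to 0.79. Sarm1 stood at 0.08 (-0.28 to 0.44), Iqgap2 at 0.07 (-0.51 to 0.65), Pop1 at 0.07 (-0.44 to 0.58) and Mtcp1 at -0.24 (-0.76 to 0.29). These intervals do not show that the genotypes are alike, and for Xaf1, Iqgap2, Pop1 and Mtcp1 they still hold differences of over 0.5 on the log2 scale. WT replicate 2 lay within the cKO range for Btaf1, Xaf1, Sarm1, Iqgap2 and Pop1, below it for Ide and Gm1821, and above it for Mtcp1.

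Leaving out WT replicate 2 instead gave larger values. With only WT replicates 1 and 3 against cKO, edgeR's adjusted p was 0.0241 for Ide, 0.0241 for Gm1821 and 0.0297 for Xaf1, with log2 fold changes of 0.76, 1.15 and 2.27, and these 3 were the only genes called of 16630. The members were selected on those same 2 libraries, so these calls are no independent test. Over its alternatives the log2 fold change of Xaf1, cKO minus WT, ran from 0.10 to 2.27, that of Iqgap2 from -1.21 to 0.07 and that of Ide from 0.17 to 0.76.

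**Figure D5:**
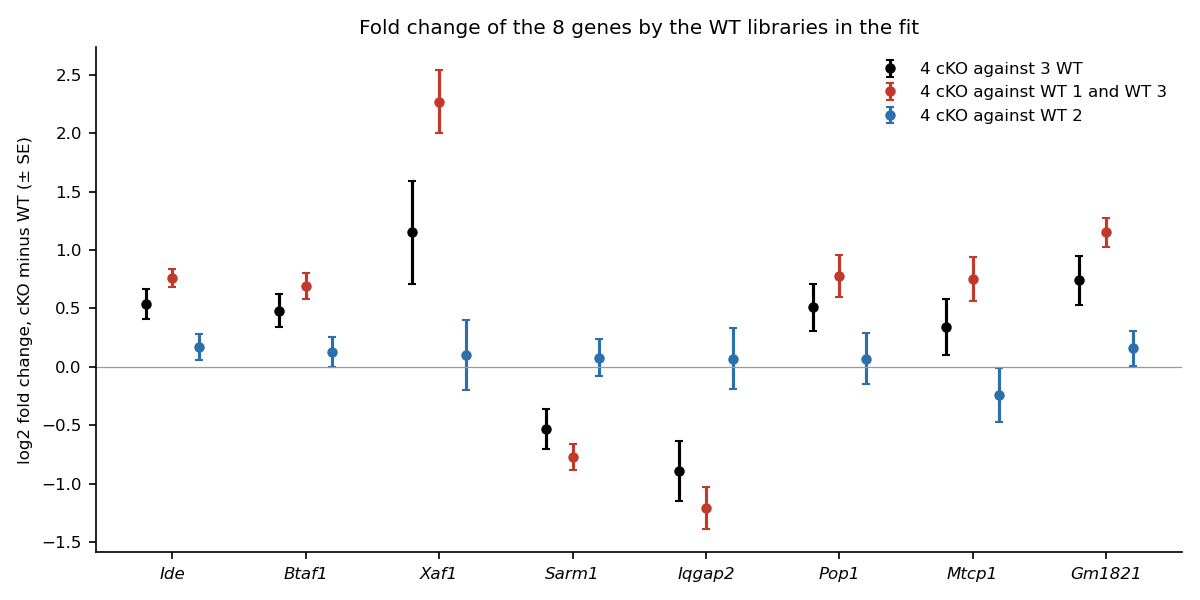
Log2 fold change, cKO minus WT, of each of the 8 genes (vertical axis, with bars for the SE) when the 4 cKO libraries are set against all 3 WT libraries (black), WT replicates 1 and 3 (red) or WT replicate 2 alone (blue). The red values are farthest from 0 for every gene, from -1.21 for Iqgap2 to 2.27 for Xaf1, and the blue ones lie between -0.24 and 0.17.

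The pathways of the members were followed with lists of partner genes, read beside the median log2 fold change of 0.007, cKO minus WT, over all genes tested; no list gene passed after adjustment. Counts of list genes at an unadjusted p under 0.05 stand beside 4.22% of all genes higher in cKO and 2.91% lower. Of 13 genes of NAD metabolism and axon loss, the setting of Sarm1, 0 had an unadjusted p under 0.05 in cKO against WT. Of the 13, 4 separated WT replicates 1 and 3 from the other 5 libraries, beside 15.7% of all genes. Nadk and Nadk2, the NAD kinases, and Nmrk1, a nicotinamide riboside kinase, were lower, with Nmrk1 at 1.77 and 2.71 CPM against 3.25 to 4.26 CPM. Map3k12, the axon injury kinase DLK, was higher, at 86.2 and 87.2 CPM against 68.7 to 85.5 CPM. Of 12 inhibitors of apoptosis and caspases, the partners of Xaf1, 0 passed as well, and of 16 interferon response genes tested, 2 did so, both with higher values in cKO (Ifit1 at 0.77 ± 0.35 and Rsad2 at 0.78 ± 0.30). Of the 16, 2 separated the pair: Trim25 at 7.22 and 6.80 CPM and Irf9 at 5.63 and 8.19 CPM lay below the other 5 libraries, at 8.65 to 10.8 and 8.58 to 12.3 CPM. The summed level of the 18 interferon genes did not separate, with 101.0 and 91.9 CPM in the pair and 88.1 to 122.0 CPM in the others.

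For the partners of Btaf1, 17 genes of TBP and TFIID were tested and 2 had an unadjusted p under 0.05, Tbp at 0.22 ± 0.10 and Taf4 at 0.27 ± 0.10. Among 11 proteases and insulin signalling genes, which share substrates or a pathway with Ide, it was 1, the adaptor Irs2 at 0.26 ± 0.09, and among 10 partners of Iqgap2 it was 1, its paralog Iqgap1 at 0.24 ± 0.10. The 10 RNase P and MRP genes tested gave 0, with Pop7 alone above the others in the pair at 10 and 8.19 CPM against 6.22 to 7.84 CPM. The lists around Mtcp1, of 7 genes tested, and of 5 ubiquitin genes gave 0 as well. Median log2 fold changes, cKO minus WT, were 0.20 for the interferon list, 0.10 for proteases and insulin signalling, 0.08 for NAD and axon loss, 0.06 for the list around Mtcp1 and 0.05 for apoptosis inhibitors and caspases. They were 0.02 for TBP and TFIID, 0.01 for the partners of Iqgap2, -0.04 for RNase P and MRP and -0.05 for ubiquitin genes.

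Likeness over the 7 libraries was measured as Pearson's r of log2 CPM, which the shared split largely fixes for these genes. Closest to Xaf1 was Fcho2, an endocytic adaptor on chromosome 13, with r of 0.992, at 52.8 and 53.7 CPM in WT replicates 1 and 3 against 64.3 to 67.8 CPM in the other 5. Ide was closest to Zfp932 (0.987), Btaf1 to Rhobtb3 (0.988), Sarm1 to Ruvbl1 (0.985), Iqgap2 to Rassf5 (0.986), Pop1 to Ubn2 (0.985), Mtcp1 to Aldh3b1 (0.992) and Gm1821 to Cnn3 (0.989). Second were Gm1821 for both Ide and Btaf1, Hbp1 for Xaf1, Ppp2r5b for Sarm1, Tufm for Iqgap2, Pla2g16 for Pop1, Gm49519 for Mtcp1 and Gm7173 for Gm1821. Each member's closest gene lay on another chromosome.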

How the data were processed

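The deposited gene counts are raw counts per gene made by the authors, and the deposited FPKM are the authors' values for the same 54532 genes. The submitters' processing notes list mm10, DESeq2 1.20.0 and featureCounts 1.5.0-p3; no label or note states the aligner, the strand setting or how multi-mapping reads were handled. The members and lists were chosen with earlier results of these data known.

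Counts were scaled with TMM factors to CPM (edgeR 4.0.16, R 4.3.3) and filtered with the default filterByExpr. Genotypes were compared with the quasi-likelihood F test, Benjamini-Hochberg adjusted over all genes tested and called at 0.05. Gaps used log2(CPM + 0.5). Exon overlaps and transcript matches (blastn 2.17.0, at least 90% identity over 100 bases) used GENCODE M21. Figures used matplotlib 3.10.9. The fitting was tested on simulated data.

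Named were the members, their nearest and separating neighbours within 0.5 Mb, the 10 widest other gaps in each direction, of which those of at least 0.5 are printed, the 2 most alike genes per member, strain-variable genes and, per pathway list, members at an unadjusted p under 0.05, or else the 2 of highest CPM, of which few are printed. List genes given for their gap, Doc2g, and non-members named as calls of a setting were chosen after their values were seen.

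Alternatives were other scalings, filters, pseudocounts and windows, DESeq2 1.42.0, limma 3.58.1 on FPKM, sex as a term, and leaving libraries out. The main fit did not pair libraries, and the replicate number as a block was an alternative. Deviations of same-numbered cKO and WT libraries correlated at 0.110, 0.128 and 0.122, each over a bound of 0.1. However, cKO replicate 4 with WT replicate 2 gave 0.210 and cKO replicate 3 with WT replicate 1 gave 0.129. Pairing by number was thus not established, and cKO replicate 4 has no WT library of its number. The meaning of the numbers is not labelled.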

Additional observations from a re-analysis of the deposited data

Results flagged for a closer look

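Within the cKO group of 4, single libraries stood apart from the other 3 in 5 of the 84 groups of values looked at, and chance alone marks about 1 in 20. Wdfy1 was 39.8 CPM in cKO replicate 2 against 60.5 to 62.5 CPM in the other cKO libraries. Ccl27a was 3.32 CPM in cKO replicate 1 against 2.33 to 2.38 CPM. Fcho2 was 64.3 CPM in cKO replicate 3 against 67.2 to 67.8 CPM. Tbp was 29.0 CPM in cKO replicate 2 against 30.0 to 30.1 CPM. Rpp14, an RNase P subunit, was 28.8 CPM in cKO replicate 4 against 32.7 to 33.3 CPM. None of the 8 members was marked in this way.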

How the results depend on the processing

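For cKO against WT the count of genes called was 0 with 7 libraries, 198 with no filter on low counts (187 of them among the 16308 genes of the filtered fit), 3 with DESeq2, and 0 to 3 when one library was left out (Cadm2 without cKO replicate 4, Entpd4b without WT replicate 1, and Ide, Xaf1 and Gm1821 without WT replicate 2). The fit with no filter called 6 members (Ide, Btaf1, Xaf1, Sarm1, Iqgap2, Gm1821). With the replicate number as a block 2 genes were called, Cadm2 and Rpl30, and no member. For WT replicate 2 alone the count of 0 became 4 with no filter, 3 with DESeq2 and 0 to 7 when one cKO library was left out, 7 without cKO replicate 3. Genes outside the other libraries numbered 2566, and 2874 to 7037 with one library left out, highest without WT replicate 3, then 5017 without WT replicate 1 and 4303 without cKO replicate 3. The 22 wide gaps became 45 with a pseudocount of 0.1, 37 on FPKM, 154 at a gap of at least 0.25, 1 at a gap of at least 1, and 31 to 243 with one library left out (243 without WT replicate 3, 113 without WT replicate 1, 106 without cKO replicate 3, 35 without cKO replicate 1, 34 without cKO replicate 4). The 41 separating genes within 2 Mb of members became 15 within 0.5 Mb, 102 within 5 Mb and 46 to 122 with one library left out (122 without WT replicate 3, 82 without WT replicate 1, 77 without cKO replicate 3), of 273, or 44.7%, 30.0% and 28.2% beside 43.2%, 30.8% and 26.4% of all genes in the same settings. Fewer libraries or a wider window make more genes count by construction; otherwise the cause was not tested. The log2 fold change, cKO minus WT, turned to 0.08 for Sarm1, 0.07 for Iqgap2 and -0.24 for Mtcp1 without WT replicates 1 and 3. That of cKO minus WT replicate 2 turned to -0.02 for Xaf1 without cKO replicate 4, and to -0.03 for Iqgap2 and -0.04 for Pop1 without cKO replicate 2. With one cKO library left out those 3 values ran from -0.02 to 0.26, -0.03 to 0.2 and -0.04 to 0.12.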

Other observations

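Entpd4b, chosen after its values were seen, was another gene with distinct levels that cut across the genotypes, at 8.14, 14.0, 8.93 and 13.7 CPM in cKO, against 14.4 CPM in WT replicate 1, 0.865 CPM in WT replicate 2 and 1.65 CPM in WT replicate 3. It belongs to a family of near-identical copies, so its counts are uncertain. Against all 3 WT libraries its log2 fold change, cKO minus WT, was 0.98 ± 0.64 (SE, edgeR adjusted p = 0.757).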
